A study of Mus musculus with 9 samples.

Results

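The annexin genes Anxa1, Anxa2, Anxa3, Anxa4, Anxa5, Anxa6, Anxa7 and Anxa11 were followed across 3 sorted populations of mouse bone marrow myeloid cells. A gene was measured by the probe sets of an Affymetrix expression array that the platform annotation gives exactly 1 symbol. This left 17 of 45101 probe sets, for 7 of the 8 genes, among 18193 genes in all. Anxa3 and Anxa5 have 1 probe set each, Anxa1 has 2, Anxa2, Anxa4 and Anxa7 have 3 each, and Anxa6 has 4. The 1 probe set that lists Anxa11 also lists other genes, so Anxa11 is given no value.

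Annexins are cytosolic proteins that bind acidic phospholipids such as phosphatidylserine when calcium rises, through a conserved core of repeated domains. Their N-terminal tails differ and carry the sites for partners such as S100 proteins. In leukocytes the family is known for parts in granule fusion, membrane repair and the resolution of inflammation, and labelled annexin A5 is a common stain for dying cells.

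The cells came from normal C57BL/6 mice of either sex, aged 4 to 10 weeks, and each population has 3 arrays, 9 in all. Neutrophils were c-kit- Gr1+ Mac1+ cells, which the labels call mature. Mac1+ myeloblasts were c-kit+ Gr1+ Mac1+ cells. Mac1- myeloblasts were c-kit+ Gr1+ cells with low or absent Mac1, so some may carry the antigen. Both c-kit+ populations were also sorted as lacking B220, TER119, CD3, CD4, CD8 and IL7Rα. C-kit is the stem cell factor receptor, Gr1 a granulocyte antigen and Mac1 an integrin whose alpha chain Itgam encodes. Nothing says whether the 3 arrays of a population come from separate animals or sorts, so a p-value here speaks only of variation among these arrays, part of which could be technical.

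Of the antigens of the sort, the genes of Mac1 and c-kit, Itgam and Kit, were taken as sort markers and followed the labels. Itgam was 1.86 ± 0.23 higher in neutrophils than in Mac1+ myeloblasts and 3.23 ± 0.23 higher in Mac1+ than in Mac1- myeloblasts on the log2 scale (± standard error), and Kit fell by 3.87 ± 0.37 in neutrophils against Mac1+ myeloblasts. All 9 neutrophil markers were called higher in neutrophils than in Mac1- myeloblasts, beside 22.6% of all genes. Of the 9, 8 were already higher in Mac1+ than in Mac1- myeloblasts (6.31% of all genes). In neutrophils against Mac1+ myeloblasts 4 were higher (19.7% of all genes) and 5 were not called, among them the granule genes Camp, Ltf and Ngp. Some markers of other lineages exceeded an intensity of 100 on all Mac1+ arrays. The eosinophil and erythroid lists had 0 of 4 measured genes each. The basophil and mast cell list had 3 of 5 (Mcpt8, Ms4a2 and Gata2) and the megakaryocyte list 1 of 5 (Gp1bb). The B cell list had 2 of 5 (Ebf1 and Cd79b) and the T and NK cell list 1 of 5 (Nkg7). The others of the last 2 lists were dim in Mac1+ myeloblasts, with mean intensities of 28.8, 36.0 and 56.0 for Cd79a, Pax5 and Vpreb1. For Cd3e, Cd3g, Gzma and Ncr1 they were 10.8, 18.2, 16.1 and 10.9. Neutrophil array 1 stood apart, with a root mean square difference over all genes of 0.906 and 1.01 log2 units from neutrophil arrays 2 and 3, against 0.295 to 0.458 between other arrays of 1 population. Its 6 myeloblast markers summed to 16040.4, against 4769 and 2790.4 on neutrophil arrays 2 and 3. Kit, the sort marker on that list, went the other way, with 94.9 on array 1 against 295 and 331. The 6 stromal and endothelial markers summed to 1499 on array 1, against 495 and 299.5. Col1a2 alone read 755 there, and Cxcl12 went the other way (82.6, against 101 and 98.6). Erythroid and B cell marker sums were also highest on array 1 among neutrophils, at 445 and 2526. So was the median intensity over all probe sets, at 61.8 against 45.4 and 40.9. The myeloblast markers summed to 72118 to 85124 in Mac1+ and 73477 to 81494 in Mac1- myeloblasts. Called gene differences given here that neutrophil array 1 moves by over 1.5 times are also given without it, and single probe sets were not refitted without it.

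Below, each array gives an intensity on a linear scale, as deposited, and differences are on the scale log2(intensity + 16) ± standard error, which makes the changes of dim genes look smaller. Fold changes are these differences on a linear scale. A gene is said to have risen or fallen where limma's Benjamini-Hochberg adjusted p over all 18193 genes was under 0.05. For a gene with several probe sets the brightest on average represents it. The 3 comparisons share arrays. In RNA of sorted bulk cells, fewer cells with a transcript and less transcript per cell cannot be told apart.

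In neutrophils against Mac1- myeloblasts Anxa1, Anxa2 and Anxa7 rose, Anxa5 and Anxa6 fell, and Anxa3 and Anxa4 did not pass, where 22.6% of all genes were called higher and 30.0% lower (52.6% in all). Between neutrophils and Mac1+ myeloblasts Anxa2, Anxa4 and Anxa6 rose and Anxa3 fell, where 19.7% of all genes were higher and 28.4% lower (48.1% in all). Between Mac1+ and Mac1- myeloblasts Anxa1 rose and Anxa4, Anxa5 and Anxa6 fell, where 6.31% of all genes were higher and 5.51% lower (11.8% in all). Against these shares, the 4 and 5 of 7 annexins called in the 2 neutrophil comparisons lie near the background and are not read as a result about the family. By size, 2, 1 and 0 of 7 annexins differed by at least 1 log2 unit in Mac1+ against Mac1- myeloblasts, neutrophils against Mac1+ myeloblasts and neutrophils against Mac1- myeloblasts, beside 7.61%, 36.6% and 40.9% of all genes. In the same order, the median annexin difference was 0.08, 0.27 and -0.20, and that of all genes -0.01, 0.05 and 0.05. The arrays of the 2 populations did not overlap for 6, 5 and 6 annexins, beside 39.9%, 54.6% and 59.1% of all genes. By direction, 3, 3 and 3 lay wholly above, beside 19.8%, 23.8% and 26.5% of genes, and 3, 2 and 3 wholly below, beside 20.1%, 30.9% and 32.6%.

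**Figure D1:**
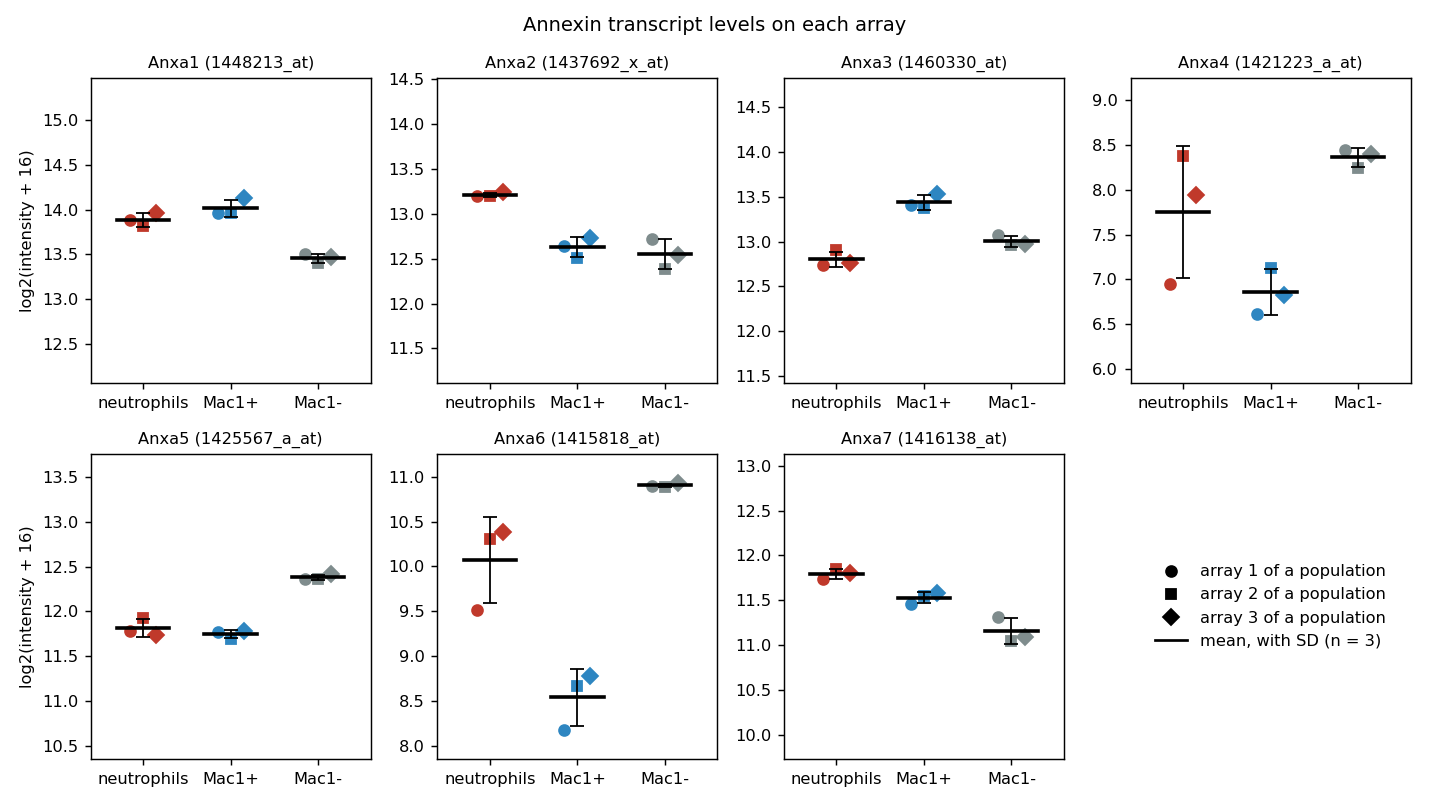
Level of each annexin gene on every array, as log2(intensity + 16) on the y axis, by population on the x axis. Points are arrays, and bars are the mean and SD of 3 arrays. Anxa4 and Anxa6 are lowest on average in Mac1+ myeloblasts, and neutrophil array 1 is the lowest neutrophil array for both.

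**Figure D2:**
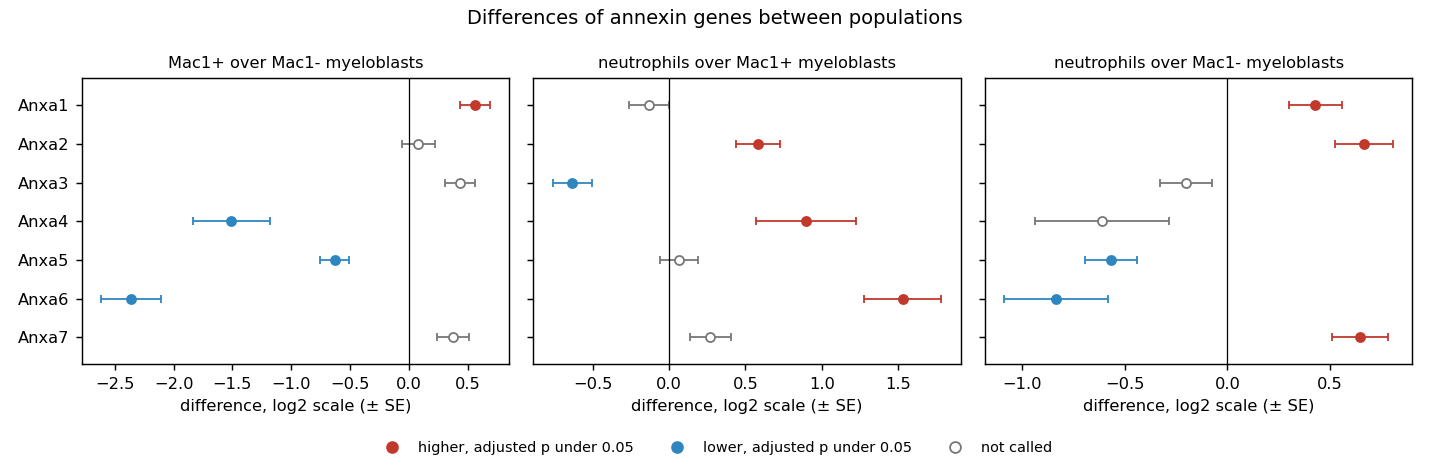
Difference of each annexin gene in the 3 comparisons, on the log2 scale with its standard error on the x axis. Filled points passed an adjusted p of 0.05 in limma and open points did not. Among the 7 genes, Anxa6 lies furthest from 0 between Mac1+ and Mac1- myeloblasts, at -2.36.

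The DNA before the starts of Anxa1, Anxa2 and Anxa5 is shown as examples. Anxa1 and Anxa2 were called higher, and Anxa5 lower, in neutrophils than in Mac1- myeloblasts. Anxa7 was also called higher there, and its windows are not printed. RefSeq promoter entries (GRCm38.p6) matched 6 of the 8 genes, in 8 windows. Anxa3 and Anxa6 are named only. Each sequence is the 250 bases before the annotated start, counted to -1 at the base next to it, and capitals mark matches to the motifs searched.
Anxa1 (chr19:20390672-20390921, minus strand): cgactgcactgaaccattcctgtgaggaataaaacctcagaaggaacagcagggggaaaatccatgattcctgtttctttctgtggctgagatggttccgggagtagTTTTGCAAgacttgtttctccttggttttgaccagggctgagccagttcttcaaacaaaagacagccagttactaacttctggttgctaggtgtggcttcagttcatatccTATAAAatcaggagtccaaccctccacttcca
Anxa2 (chr9:69453433-69453682, plus strand): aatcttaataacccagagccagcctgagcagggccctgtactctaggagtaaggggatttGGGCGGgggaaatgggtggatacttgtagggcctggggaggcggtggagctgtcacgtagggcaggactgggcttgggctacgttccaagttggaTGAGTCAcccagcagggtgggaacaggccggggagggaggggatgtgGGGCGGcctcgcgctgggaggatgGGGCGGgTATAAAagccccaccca
Anxa5 (chr3:36475888-36476137, minus strand): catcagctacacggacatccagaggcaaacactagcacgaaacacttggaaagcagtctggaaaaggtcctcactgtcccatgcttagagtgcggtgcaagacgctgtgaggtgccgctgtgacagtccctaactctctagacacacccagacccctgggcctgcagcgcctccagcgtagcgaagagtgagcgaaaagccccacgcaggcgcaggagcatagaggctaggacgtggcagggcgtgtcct
The 7 motifs, sought on both strands, were the TATA box with the letters TATAAA, the CCAAT box, the GC box with the letters GGGCGG, the AP-1 site written TGANTCA, the C/EBP site written TTGCNNAA, the PU.1 site written GAGGAAG and the glucocorticoid response element. The Anxa1 window holds a TATA box at bases -32 to -27 from the start and a C/EBP match at -143 to -136. The Anxa2 window holds a TATA box at -17 to -12, an AP-1 match at -95 to -89 and 3 GC boxes, and the Anxa5 window has no match. Among all 32851 windows of this length, 12.4% hold the TATA box, 9.56% the C/EBP letters, 6.75% the AP-1 letters, 32.7% the GC box, 33.8% the CCAAT box, 10.6% the PU.1 letters and 0.387% the glucocorticoid element. The last 3 were found in none of the 8 annexin windows. Both Anxa7 windows and that of Anxa11 hold GC boxes, and 1 of the 2 Anxa4 windows holds a C/EBP match. A match describes letters and is not a site.

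Anxa1 encodes annexin A1, or lipocortin, which glucocorticoids induce and which limits neutrophil recruitment through formyl peptide receptors. It was higher in both populations with Mac1. Its intensity was 15043, 14375 and 15917 in neutrophils, against 15942, 15936 and 17862 in Mac1+ and 11567, 10791 and 11308 in Mac1- myeloblasts. All neutrophil and Mac1+ arrays lay above all Mac1- arrays. Anxa1 was 1.48-fold higher in Mac1+ than in Mac1- myeloblasts (0.56 ± 0.13, adjusted p = 0.0214) and 1.35-fold higher in neutrophils than in Mac1- myeloblasts (0.43 ± 0.13, adjusted p = 0.0197). In neutrophils against Mac1+ myeloblasts its difference was -0.13 ± 0.13 (adjusted p = 0.426), a value that turned positive with quantile normalization (0.19) and as the mean of both probe sets (0.79, adjusted p = 0.00273). The call between the myeloblast populations was lost without any 1 of their 6 arrays (adjusted p = 0.0595 to 0.102), and that of neutrophils against Mac1- myeloblasts without Mac1- array 2 or 3 (adjusted p = 0.0737 and 0.06). With arrays centred on their medians neither passed (adjusted p = 0.0509 and 0.211). No more than 0.749% of probe sets on any array were brighter, and compression of so bright a signal was not tested.

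The second Anxa1 probe set, 1444016_at, was dim. It read 218, 106 and 113 in neutrophils, against 24.7, 33.2 and 36.0 in Mac1+ and 12.8, 14.0 and 7.25 in Mac1- myeloblasts, with no overlap between any 2 populations. In a fit of all 45037 probe sets other than controls it rose in neutrophils against Mac1+ myeloblasts (1.71 ± 0.26, adjusted p = 0.000626), a step at which the bright probe set was not called.

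Fpr2, a formyl peptide receptor that binds annexin A1, read 12757, 11599.8 and 11478 in neutrophils, against 2208, 1552 and 887 in Mac1+ and 84.8, 66.7 and 59.8 in Mac1- myeloblasts. It was 17.1-fold higher in Mac1+ than in Mac1- myeloblasts (4.09 ± 0.29, adjusted p = 3.28e-05) and 8.15-fold higher in neutrophils than in Mac1+ myeloblasts (3.03 ± 0.29, adjusted p = 2.56e-05). It is the 1 measured of 3 receptor genes listed. Prtn3 and Elane encode proteinase 3 and neutrophil elastase, serine proteases that can cleave human annexin A1. In neutrophils against Mac1+ myeloblasts Prtn3 fell by 3.63 ± 0.60 (adjusted p = 0.000863) and Elane fell by 4.71 ± 0.67 (adjusted p = 0.000316). Without neutrophil array 1 the differences were -4.45 for Prtn3 and -5.64 for Elane. Both are also myeloblast markers, and both were highest among neutrophils on array 1, with 3349, 841 and 413 for Prtn3 and 2199, 451 and 208 for Elane on neutrophil arrays 1 to 3.

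By their brightest probe sets the 3 glucocorticoid genes rose in neutrophils against Mac1+ and against Mac1- myeloblasts, where 19.7% and 22.6% of all genes were higher. None of the 3 passed by these probe sets between Mac1+ and Mac1- myeloblasts, where 11.8% of all genes were called (limma's adjusted p = 0.987, 0.0712 and 0.653 for Nr3c1, Tsc22d3 and Fkbp5). Nr3c1, the glucocorticoid receptor, read 2249, 4147 and 3679.9 in neutrophils, against 1322, 1173 and 1154 in Mac1+ and 1126, 1159 and 1310.2 in Mac1- myeloblasts, and was 2.66-fold higher in neutrophils than in Mac1+ myeloblasts (1.41 ± 0.22, adjusted p = 0.000651). Tsc22d3, the glucocorticoid-induced leucine zipper, read 7539, 4369 and 3995 in neutrophils, against 1748, 1746 and 1584 in Mac1+ and 892, 997 and 1080.2 in Mac1- myeloblasts. Between Mac1+ and Mac1- myeloblasts 2 of its 4 probe sets rose, with 0.83 ± 0.21, adjusted p = 0.0443 for 1420772_a_at and 0.91 ± 0.17, adjusted p = 0.0132 for 1425281_a_at. Tsc22d3 was 2.99-fold higher in neutrophils than in Mac1+ myeloblasts and 5.09-fold higher than in Mac1- myeloblasts, while its probe set 1444365_at fell in the same comparisons (-1.17 and -1.81). Fkbp5, a co-chaperone of the receptor, was 1.30-fold higher in neutrophils than in Mac1+ myeloblasts (adjusted p = 0.0381), a call lost under 14 of 21 other settings. Pla2g4a, cytosolic phospholipase A2, an enzyme that annexin A1 restrains, read 756, 1592 and 1292 in neutrophils, against 1927, 1913 and 2023 in Mac1+ and 1508, 1494 and 1446 in Mac1- myeloblasts. It fell by 0.74 ± 0.24 in neutrophils against Mac1+ myeloblasts (adjusted p = 0.0317), a call lost under 8 of 21. Without neutrophil array 1 the difference was -0.44.

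Anxa2 encodes annexin A2, which pairs with S100A10 at membranes and binds actin. It rose in neutrophils against both myeloblast populations. The probe set that represents it, 1437692_x_at, read 9369, 9397 and 9674 in neutrophils, against 6397, 5813 and 6797 in Mac1+ and 6745, 5333 and 5936 in Mac1- myeloblasts. All neutrophil arrays lay above all others, and the myeloblast populations overlapped. Anxa2 was 1.50-fold higher in neutrophils than in Mac1+ myeloblasts (0.58 ± 0.14, adjusted p = 0.00796) and 1.58-fold higher than in Mac1- myeloblasts (0.66 ± 0.14, adjusted p = 0.00345). With arrays centred on their medians the first of these did not pass (0.39, adjusted p = 0.103). Between Mac1+ and Mac1- myeloblasts its difference was 0.08 ± 0.14 (adjusted p = 0.878). A suffix x marks a probe set that may also bind other transcripts. Probe set 1419091_a_at, without it, read 13502, 13722 and 13589.9 in neutrophils, against 4903, 4227 and 5468 in Mac1+ and 5384, 4142 and 4540.0 in Mac1- myeloblasts. By that probe set Anxa2 was 2.81-fold higher in neutrophils than in Mac1+ myeloblasts (1.49 ± 0.17, adjusted p = 8.96e-05, over all probe sets). The third, 1437691_at, had 0.46 ± 0.23 and was not called.

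S100a10, which encodes the partner of annexin A2, was far lower in both populations with Mac1. It read 202, 309 and 104 in neutrophils, against 81.1, 159 and 180.4 in Mac1+ and 5072, 4302 and 4562 in Mac1- myeloblasts. It fell by 4.51 ± 0.38 in neutrophils against Mac1- myeloblasts (adjusted p = 7.18e-06), where Anxa2 rose, and by 4.96 ± 0.38 in Mac1+ against Mac1- myeloblasts (adjusted p = 4.37e-05). All 3 of its probe sets were called lower in both. Ahnak, a giant scaffold that binds the annexin A2 and S100A10 complex, read 467, 549 and 426 in neutrophils, against 14.2, 2.37 and 41.3 in Mac1+ and 644, 685 and 852 in Mac1- myeloblasts. It was lowest in Mac1+ myeloblasts, with a difference of 3.96 ± 0.36, adjusted p = 1.53e-05 in neutrophils against Mac1+ myeloblasts. The Mac1+ values are so low that this size too depends on the offset (5.21 with an offset of 1 and 2.73 with 64). Its other 3 probe sets stayed at or under 27.9 on all arrays and were not called in any comparison.

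S100a6, calcyclin, which binds annexins, read 14109.9, 10572 and 9617 in neutrophils, against 94.2, 124 and 81.7 in Mac1+ and 261, 199 and 210.0 in Mac1- myeloblasts. It was 98.4-fold higher in neutrophils than in Mac1+ myeloblasts (6.62 ± 0.21, adjusted p = 4.67e-08), and fell by 1.05 in Mac1+ against Mac1- myeloblasts (adjusted p = 0.0103, and 0.05 without Mac1- array 1). S100a4, which binds annexin A2, was dim and scattered, with 21.1, 149 and 105 in neutrophils, against 34.3, 3.33 and 4.63 in Mac1+ and 157, 99.4 and 116 in Mac1- myeloblasts. Its fall in Mac1+ against Mac1- myeloblasts (-2.35 ± 0.56, adjusted p = 0.026) was lost under 8 of 21 other settings. Dysf, dysferlin, a membrane repair protein, read 34.2, 61.3 and 77.5 in neutrophils, against 31.0, 27.1 and 15.5 in Mac1+ and 7.42, 6.26 and 10.6 in Mac1- myeloblasts, and rose in neutrophils against Mac1- myeloblasts (1.57 ± 0.25, adjusted p = 0.000554).

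Anxa3 encodes annexin A3, which in human neutrophils associates with granules. It was highest in Mac1+ myeloblasts. It read 6839, 7631 and 6919 in neutrophils, against 10894, 10588 and 11777 in Mac1+ and 8610.4, 7932 and 8045 in Mac1- myeloblasts, with no overlap between any 2 populations. It fell by 0.64 ± 0.13 in neutrophils against Mac1+ myeloblasts (1.55-fold lower, adjusted p = 0.00281), a call lost with quantile normalization (-0.28, adjusted p = 0.202). Its difference between Mac1+ and Mac1- myeloblasts was 0.43 ± 0.13 (adjusted p = 0.0642) and passed without neutrophil array 1 (adjusted p = 0.0157). That array belongs to neither population and acts only through the common variance. Between neutrophils and Mac1- myeloblasts the difference was -0.20 ± 0.13 (adjusted p = 0.222), and 0.08 with quantile normalization.

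Anxa5 encodes annexin A5, which binds phosphatidylserine on the cell surface. It fell in both populations with Mac1 against Mac1- myeloblasts. It read 3509, 3869 and 3396 in neutrophils, against 3472, 3303 and 3513 in Mac1+ and 5262, 5257 and 5436 in Mac1- myeloblasts. All Mac1- arrays lay above all others, while neutrophils and Mac1+ myeloblasts overlapped, with a difference of 0.06 ± 0.13 (adjusted p = 0.701) that became -0.13 with arrays centred on their medians. Anxa5 fell by 0.57 ± 0.13 in neutrophils against Mac1- myeloblasts (1.48-fold lower, adjusted p = 0.00417) and by 0.63 ± 0.13 in Mac1+ against Mac1- myeloblasts (1.55-fold lower, adjusted p = 0.0109). The call between the myeloblast populations was lost without Mac1+ array 2 (adjusted p = 0.0569) and without Mac1- array 2 or 3 (adjusted p = 0.0514 and 0.0613).

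The list for the exposure of phosphatidylserine pools scramblases with flippase genes, so its counts are not a measure of exposure. Of its 6 measured genes, 4 rose, among them the flippase gene Atp11a, 1 fell and 1 did not pass in neutrophils against Mac1- myeloblasts. There 22.6% of all genes were higher and 30.0% lower (52.6% in all). The 1 that fell was Plscr3, whose scramblase is mitochondrial. In neutrophils against Mac1+ myeloblasts 2 rose, 2 fell and 2 did not pass (all genes 19.7% higher and 28.4% lower). In Mac1+ against Mac1- myeloblasts 2 rose and 4 did not pass (all genes 6.31% higher and 5.51% lower). Plscr1, a phospholipid scramblase, read 1918, 2542 and 2629 in neutrophils, against 3756, 3621 and 3608 in Mac1+ and 951, 956 and 928 in Mac1- myeloblasts, and was 3.83-fold higher in Mac1+ than in Mac1- myeloblasts (1.94 ± 0.15, adjusted p = 5.51e-05). Plscr3, a mitochondrial scramblase, read 253, 470.4 and 591 in neutrophils, against 4183, 4281 and 5149 in Mac1+ and 3199.6, 2832 and 2939.7 in Mac1- myeloblasts, and was 10.5-fold lower in neutrophils than in Mac1+ myeloblasts (-3.40 ± 0.27, adjusted p = 7.19e-06). Atp11a, a flippase that returns phosphatidylserine to the inner leaflet, read 3283, 4511 and 4903 in neutrophils, against 1404, 1487 and 1861 in Mac1+ and 1162, 1054 and 1149 in Mac1- myeloblasts, and was 2.64-fold higher in neutrophils than in Mac1+ myeloblasts (1.40 ± 0.19, adjusted p = 0.000223). Xkr8, a scramblase that caspases activate, read 693, 798 and 722 in neutrophils, against 431, 465 and 539 in Mac1+ and 451, 453 and 405 in Mac1- myeloblasts. It was 1.53-fold higher in the same comparison (0.61 ± 0.14, adjusted p = 0.00638), but its second probe set 1439590_at had -0.88 and was not called, and the mean of both was -0.13. Ano6, a calcium-activated scramblase, was 1.51-fold higher in Mac1+ than in Mac1- myeloblasts (adjusted p = 0.0211), a call lost under 8 of 21 other settings. Tmem30a, a flippase subunit, passed in no comparison by its brightest probe set.

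Anxa6 and Anxa4 were called lower in Mac1+ myeloblasts than in both other populations. Anxa6 encodes annexin A6, whose core is doubled and which can bring p120 GAP, a Ras regulator, and protein kinase C alpha to membranes. It read 716, 1249 and 1324 in neutrophils, against 274, 389 and 422 in Mac1+ and 1887, 1882 and 1928 in Mac1- myeloblasts, with no overlap between any 2 populations. It was 5.15-fold lower in Mac1+ than in Mac1- myeloblasts (-2.36 ± 0.25, adjusted p = 0.000343), which also passed a test against a 2-fold change. It was 2.89-fold higher in neutrophils than in Mac1+ myeloblasts (1.53 ± 0.25, adjusted p = 0.000827), and 1.81 on the log2 scale without neutrophil array 1. In neutrophils against Mac1- myeloblasts it fell by 0.83 ± 0.25 (adjusted p = 0.0211), a call lost without Mac1- array 1, 2 or 3 (adjusted p = 0.0549, 0.0551 and 0.0594) or with its probe sets averaged (adjusted p = 0.14). Without neutrophil array 1 that difference was -0.56 (adjusted p = 0.0254).

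The 4 Anxa6 probe sets did not behave alike. Probe set 1429246_a_at read 165, 445 and 508 in neutrophils, against 90.0, 86.1 and 109.7 in Mac1+ and 481, 566 and 596 in Mac1- myeloblasts. It had -2.34 ± 0.36, adjusted p = 0.00412 in Mac1+ against Mac1- myeloblasts and 1.67 ± 0.36, adjusted p = 0.00477 in neutrophils against Mac1+ myeloblasts, like the one that represents the gene. Probe set 1442288_at read 435, 230.1 and 157 in neutrophils, against 51.3, 41.4 and 54.3 in Mac1+ and 83.6, 71.1 and 67.2 in Mac1- myeloblasts. It rose in neutrophils against Mac1+ (2.05 ± 0.31, adjusted p = 0.00059) and Mac1- myeloblasts (1.58 ± 0.31, adjusted p = 0.00249), and the second direction is opposite to that of the representing probe set. Probe set 1429247_at read 581, 199 and 97.3 in neutrophils, against 1060.0, 621 and 132 in Mac1+ and 350.2, 769 and 1025 in Mac1- myeloblasts, and with this spread it was called in no comparison.

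Anxa4 encodes annexin A4, which is abundant in epithelia. It was dim, with 107, 315 and 230.4 in neutrophils, against 82.1, 124 and 97.0 in Mac1+ and 332, 287 and 322 in Mac1- myeloblasts. Neutrophil array 1 lay among the Mac1+ arrays, so these populations overlapped. Anxa4 was 2.85-fold lower in Mac1+ than in Mac1- myeloblasts (-1.51 ± 0.33, adjusted p = 0.0166), a call lost without Mac1+ array 1 or 3 or any 1 Mac1- array (adjusted p = 0.0536 to 0.0719), with quantile normalization (adjusted p = 0.0725) or with arrays centred on their medians (adjusted p = 0.0511). In neutrophils against Mac1+ myeloblasts it rose by 0.90 ± 0.33 (adjusted p = 0.0482). Without neutrophil array 1 this was 1.30 (adjusted p = 0.000439), and without any 1 of the other 8 arrays it did not pass (adjusted p = 0.0607 to 0.143). Its difference between neutrophils and Mac1- myeloblasts was -0.61 ± 0.33 (adjusted p = 0.152), -0.20 without neutrophil array 1 and -0.92 without neutrophil array 2, which passed (adjusted p = 0.0336). In the fit of all probe sets the representing one did not pass in neutrophils against Mac1+ myeloblasts (adjusted p = 0.0561). Probe set 1424176_a_at read 13.4, 17.9 and 15.9 in neutrophils, against 10.8, 15.6 and 21.3 in Mac1+ and 29.8, 46.4 and 37.1 in Mac1- myeloblasts. It fell in Mac1+ (-0.75 ± 0.19, adjusted p = 0.0466) and in neutrophils (-0.75 ± 0.19, adjusted p = 0.00947) against Mac1- myeloblasts. Between neutrophils and Mac1+ myeloblasts its difference was 0.0025 (adjusted p = 0.994). Probe set 1457658_x_at read 34.4, 37.7 and 28.7 in neutrophils, against 18.2, 18.3 and 12.6 in Mac1+ and 26.6, 20.7 and 30.0 in Mac1- myeloblasts, and rose in neutrophils against Mac1+ myeloblasts (0.62 ± 0.17, adjusted p = 0.016).

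Of 10 monocyte and macrophage genes, 8 fell and 0 rose in Mac1+ against Mac1- myeloblasts (all genes 5.51% lower and 6.31% higher). Only Ccr2 and Mrc1 were not called. Irf8, F13a1 and Csf1r had mean intensities of 13158, 12225 and 8449 in Mac1- myeloblasts, against 676, 2213 and 569 in Mac1+ myeloblasts. In neutrophils against Mac1- myeloblasts 6 fell and 1 rose (all genes 30.0% lower and 22.6% higher). Where Anxa4 and Anxa6 rose, in neutrophils against Mac1+ myeloblasts, 4 of the 10 rose, 2 fell and 4 did not pass. There 19.7% of all genes were higher and 28.4% lower (48.1% in all). Taken in both directions these calls lie near the background, while the 4 that rose (Csf1r, Ctss, Klf4 and Adgre1) are a larger share than among all genes. The summed intensity of the 10 genes was 14919 to 23816 in neutrophils, 5784 to 6919.5 in Mac1+ and 51099.9 to 54812 in Mac1- myeloblasts. Of the 10, 0 were at or under an intensity of 1 on all arrays of a population. The part of these monocyte and macrophage genes in the differences of Anxa4, Anxa5, Anxa6, S100a10 and Ahnak was not tested.

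Of the partners of annexin A6, Prkca, protein kinase C alpha, read 3739, 2711 and 2817 in neutrophils, against 582, 300.0 and 124 in Mac1+ and 23.6, 12.8 and 4.94 in Mac1- myeloblasts. It rose in Mac1+ against Mac1- myeloblasts (3.37 ± 0.47, adjusted p = 0.00164), where Anxa6 fell. The Mac1- values are so low that the size of this difference depends on the offset (4.47 with an offset of 1 and 2.19 with 64). Its probe sets disagreed: in neutrophils against Mac1+ myeloblasts 1437393_at rose (1.31) and 1450945_at fell (-0.59). Rasa1, which encodes p120 GAP, had 0.26 ± 0.35 (adjusted p = 0.574) in that comparison and passed in none, although its probe set 1426477_at rose there (0.84).

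Anxa7 encodes annexin A7, or synexin, known for fusing chromaffin granules in cattle, and it binds the calcium-binding proteins sorcin and ALG-2. It was highest in neutrophils and lowest in Mac1- myeloblasts. It read 3401, 3669.7 and 3566 in neutrophils, against 2799, 2984 and 3044 in Mac1+ and 2536, 2104 and 2162 in Mac1- myeloblasts, with no overlap between any 2 populations. Anxa7 was 1.56-fold higher in neutrophils than in Mac1- myeloblasts (0.65 ± 0.13, adjusted p = 0.00293). The neighbours in this order did not pass: the difference was 0.27 ± 0.13 (adjusted p = 0.134) in neutrophils against Mac1+ myeloblasts and 0.38 ± 0.13 (adjusted p = 0.124) in Mac1+ against Mac1- myeloblasts. The comparison of the myeloblast populations passed without neutrophil array 1 (adjusted p = 0.0392), and that of neutrophils with Mac1+ myeloblasts passed with quantile normalization (adjusted p = 0.0249) and with averaged probe sets (adjusted p = 0.00254). Probe set 1416137_at read 359, 759 and 779 in neutrophils, against 370.1, 427 and 411 in Mac1+ and 424, 337 and 388 in Mac1- myeloblasts, and 1438764_at read 1285, 538 and 408 in neutrophils, against 369, 335 and 332 in Mac1+ and 323, 498 and 431 in Mac1- myeloblasts. Neither was called in any comparison. Sri, sorcin, read 7337, 6091 and 6096 in neutrophils, against 5612, 5575 and 5681 in Mac1+ and 2475, 2323 and 2396 in Mac1- myeloblasts, and was 2.34-fold higher in Mac1+ than in Mac1- myeloblasts (1.22 ± 0.13, adjusted p = 0.000378). Pdcd6, which encodes ALG-2, read 4666, 4662 and 4432 in neutrophils, against 4573, 4679 and 4788 in Mac1+ and 4589, 4074 and 4138 in Mac1- myeloblasts, and passed in no comparison.

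**Figure D3:**
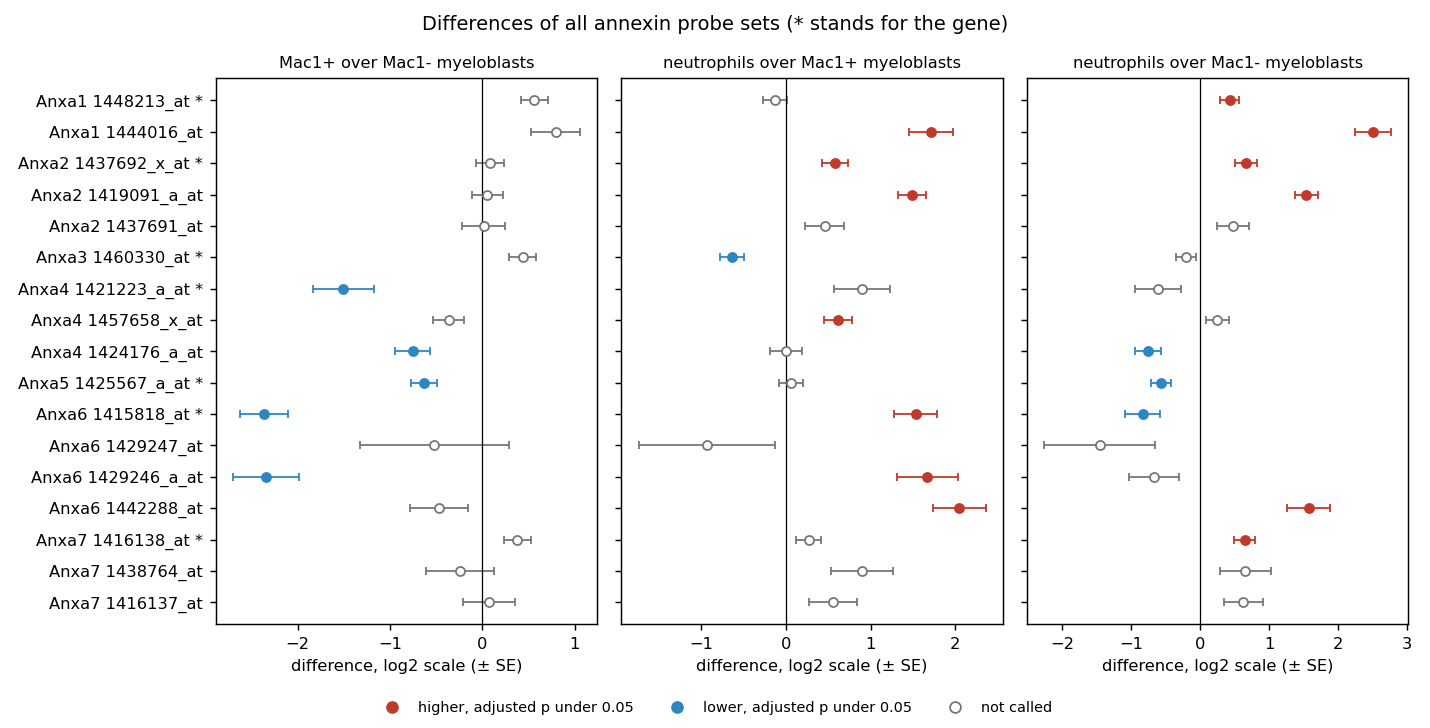
Difference of each of the 17 annexin probe sets in the 3 comparisons, on the log2 scale with its standard error on the x axis, from a fit of all probe sets. Stars mark the probe set that represents its gene, and filled symbols passed an adjusted p of 0.05. The 3 Anxa2 probe sets lie above 0 in both neutrophil comparisons, and the 4 of Anxa6 lie on both sides of 0 in these comparisons.

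Of the 17 probe sets, 9 exceeded 100 on all arrays. In Mac1+ against Mac1- myeloblasts, neutrophils against Mac1+ myeloblasts and neutrophils against Mac1- myeloblasts, 9, 8 and 8 of the 10 others had the direction of the probe set that represents their gene. Both were called in 2, 3 and 3 cases, of which 2, 3 and 2 shared the direction. In the fit of probe sets, 0, 7 and 6 annexin probe sets were called higher and 5, 1 and 3 lower, where 6.79%, 40.8% and 45.1% of all probe sets were called.

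**Figure D4:**
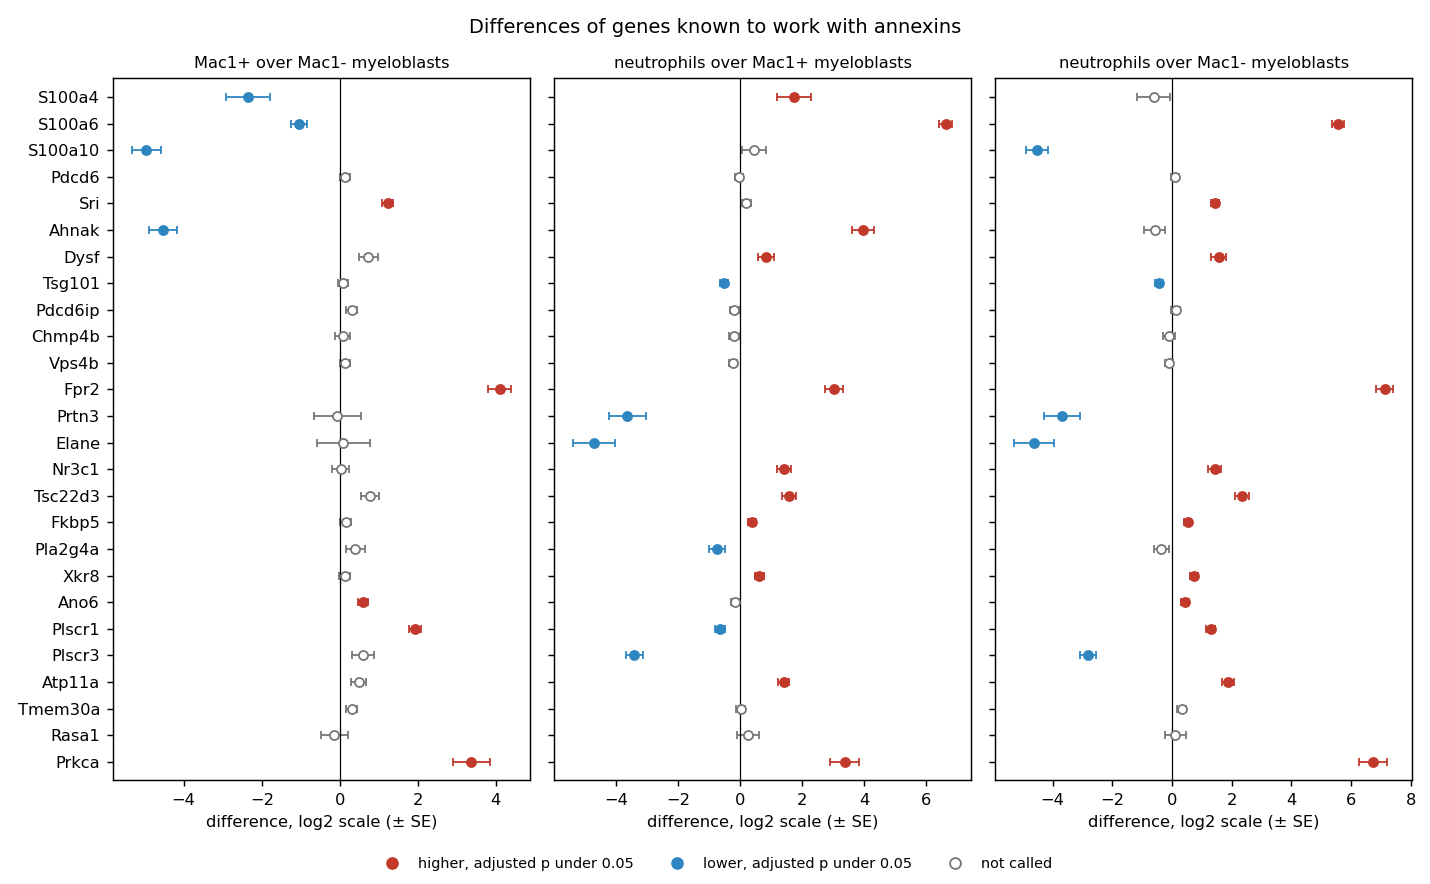
Difference of 26 genes that act with annexins or on their ligands, in the 3 comparisons, on the log2 scale with its standard error on the x axis. Filled points passed an adjusted p of 0.05 in limma. S100a10 lies far below 0 in both comparisons with Mac1- myeloblasts, and Fpr2 lies above 0 in all 3.

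Of 30 partner genes listed, 26 were measured. In Mac1+ against Mac1- myeloblasts 5 rose and 4 fell (all genes 6.31% higher and 5.51% lower), in neutrophils against Mac1+ myeloblasts 11 rose and 6 fell (all genes 19.7% higher and 28.4% lower), and in neutrophils against Mac1- myeloblasts 12 rose and 5 fell (all genes 22.6% higher and 30.0% lower). The median differences were 0.14, 0.23 and 0.22 in that order. Of 5 S100 and EF-hand partners measured, 1 rose and 3 fell in Mac1+ against Mac1- myeloblasts. Of 6 scaffold and repair genes, 2 rose and 1 fell in neutrophils against Mac1+ myeloblasts, the last being Tsg101, an ESCRT subunit (-0.52 ± 0.13, adjusted p = 0.00755). The ESCRT genes Pdcd6ip, Chmp4b and Vps4b passed in no comparison by their brightest probe sets, whereas probe set 1460263_at of Pdcd6ip rose in neutrophils against Mac1+ myeloblasts (1.22 ± 0.40, adjusted p = 0.0386).

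The other annexins on the array were Anxa8, Anxa9, Anxa10 and Anxa13. Anxa9 read 101, 63.1 and 101 in neutrophils, against 192, 175 and 224 in Mac1+ and 315, 297 and 289.9 in Mac1- myeloblasts, and fell by 1.63 ± 0.19 in neutrophils against Mac1- myeloblasts (adjusted p = 6.13e-05). Anxa13 read 3827, 1457 and 1112 in neutrophils, against 12003, 10507 and 3604 in Mac1+ and 8099, 10637 and 11056 in Mac1- myeloblasts. It fell in neutrophils against Mac1+ myeloblasts (-2.05 ± 0.54, adjusted p = 0.0115), although Mac1+ array 3 lay below neutrophil array 1. Ebf1, a B cell transcription factor, also had its lowest myeloblast value on Mac1+ array 3. It read 2112, 985 and 836 in neutrophils, against 11772, 8838 and 1898 in Mac1+ and 7051, 11104 and 11397 in Mac1- myeloblasts. The other measured B cell markers, Cd79a, Cd79b, Pax5 and Vpreb1, did not have their lowest myeloblast value there. Cd79b read 551, 736 and 747 on Mac1+ arrays 1 to 3. A part of Ebf1 in the Anxa13 values was not tested. Anxa10 was dim, with 69.5, 27.0 and 24.2 in neutrophils, against 9.34, 15.2 and 10.9 in Mac1+ and 21.0, 13.5 and 5.12 in Mac1- myeloblasts, and its rise in neutrophils against Mac1+ myeloblasts (0.93 ± 0.31, adjusted p = 0.0348) was lost under 10 of 20 other settings, among them without neutrophil array 1 (adjusted p = 0.0562). Anxa8 passed in no comparison and read at most 28.8.

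The genes most like each annexin were sought among 9089 others above the median level, by the root mean square difference of the 9 log2 levels after each gene was centred on its own mean. These values describe 9 shared arrays. The nearest gene has the smallest of 9089 values by choice, so its place below the median is no evidence of a special likeness. Anxa2 was nearest to Tyrobp, an adaptor of myeloid receptors (0.0495, against a median of 0.831 over all candidates). Anxa3 was nearest to Cd47, a surface protein that inhibits phagocytosis (0.0645 against 0.721), and Anxa6 to P2rx4, an ATP-gated channel (0.0975 against 1.30). The nearest genes to Anxa1, Anxa4, Anxa5 and Anxa7 were Trip12 (0.0712), Acad8 (0.204), Nr2f6 (0.0995) and Fam193a (0.0708). The second nearest, for Anxa1 to Anxa7 in order, were Sla, H2-K1, Eme2, Clock, Got2, Rhoq and Akirin1. Within the family Anxa2 and Anxa7 were closest (0.160) and Anxa1 and Anxa6 furthest apart (1.23), and Anxa4 and Anxa6 differed by 0.414.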

How the data were processed

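The labels' protocols give column-purified polyA RNA, a kit with 2 rounds of amplification and biotin labelling. The authors deposited linear intensity values for all arrays in 1 table, and the sources used here name no method of summary, background correction or scaling. Intensities were taken to log2(intensity + 16) with no further scaling. The platform annotation gives 34945 probe sets 1 gene, 932 several and 9160 none, and 64 are controls; 99.4% of those with 1 gene matched RefSeq gene entries (GRCm38.p6), which changed 0 symbols. limma 3.58.1 in R 4.3.3 fitted the 3 populations together with moderated variances and Benjamini-Hochberg adjustment over 18193 genes, and was tested on simulated data. Named were all 8 annexins, partner genes called in any comparison, and all measured members of lists of 4 genes or fewer. Pdcd6, Tmem30a, Pdcd6ip, Chmp4b, Vps4b and Ebf1 and other lineage markers were named after their values were seen. Members, lists and alternatives were chosen with earlier results of these data known. Replicate numbers recur in each population, but arrays of 1 number did not deviate together (correlations of -0.307 to 0.132, over 0.1 in 1 of 9), so no block was used. The labels name no batch.

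Other settings tried were quantile normalization, centring on array medians, a replicate block, offsets of 1 and 64, omission of genes below the 40th percentile, averaged probe sets, single probe sets, no x or s probe sets, 2 populations alone, a trended robust prior, a 2-fold threshold, and omission of single arrays. Partner genes were added to these after the data were seen.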

Additional observations from a re-analysis of the deposited data

How the results depend on the processing

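Counts over 7 annexins move with single genes. In Mac1+ against Mac1- myeloblasts, 1 higher call became 0 with the replicate block, centred arrays (0), single probe sets (0) or a 2-fold threshold (0), 2 without dim genes and 3 with an offset of 64, 2 populations alone (3) or a trended prior (3); 3 lower calls became 1 with a 2-fold threshold. Without 1 array the ranges were 0 to 3 higher and 1 to 3 lower. In neutrophils against Mac1+ myeloblasts, 3 higher calls became 1 with centred arrays, 5 with averaged probe sets and 0 with a 2-fold threshold, and 1 lower call became 0 with quantile normalization or a 2-fold threshold (0); without 1 array there were 2 to 3 and 1 to 1. In neutrophils against Mac1- myeloblasts, 3 higher and 2 lower calls became 0 and 0 with a 2-fold threshold, and lower calls 1 with averaged probe sets; without 1 array there were 2 to 3 and 1 to 3. The replicate block lost the call of Anxa1 between the myeloblast populations (adjusted p = 0.0637) and no other annexin call.

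Over all genes, 1148 higher and 1003 lower calls in Mac1+ against Mac1- myeloblasts became 2274 and 2235 with those populations alone, 197 and 181 with a 2-fold threshold, and 710 to 2191 and 599 to 1987 without 1 array, most without neutrophil array 1. In neutrophils against Mac1+ myeloblasts, 3591 and 5163 became 8916 and 9469 over single probe sets, 1025 and 2660 with a 2-fold threshold and 2786 to 4254 and 4640 to 5726 without 1 array. In neutrophils against Mac1- myeloblasts, 4109 and 5461 became 10113 and 10187, 1403 and 3106, and 3330 to 4601 and 4977 to 6045. Single probe sets are more features, and a 2-fold threshold asks for larger changes; the other causes were not tested. Centring moved the median of all genes by -0.20 and -0.16 in the neutrophil comparisons.

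Signs turned for Anxa1 in neutrophils against Mac1+ myeloblasts with quantile normalization (0.19) and averaged probe sets (0.79), for Anxa3 in neutrophils against Mac1- myeloblasts with quantile normalization (0.0831), for Anxa5 in neutrophils against Mac1+ myeloblasts with centred arrays (-0.13), and for Anxa2 in Mac1+ against Mac1- myeloblasts without 1 array (-0.00109 to 0.168), none of which was called as reported. Xkr8, called in both neutrophil comparisons, turned with averaged probe sets (-0.13 against Mac1+ and -0.11 against Mac1- myeloblasts). Signal near background limits the sizes given for Anxa4, Anxa10, S100a4 and Dysf, for Prkca in Mac1- and Ahnak in Mac1+ myeloblasts, and for Anxa1 probe set 1444016_at.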
